A study of Homo sapiens with 7 samples.

Results

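Listed pThr4 peaks were examined at 10 immediate early and growth response genes (JUN, JUNB, JUND, FOS, EGR1, IER2, MYC, ATF3, ATF4 and DDIT4), out of 19626 protein-coding genes whose strand was known. The genes were taken as a named set, by their RefSeq positions on GRCh38. Each was examined in a window from 1 kb before its start to 10 kb past its end. The peaks came from chromatin immunoprecipitation sequencing (ChIP-seq) in HEK293 cells, an established human embryonic kidney line, with the antibody 6D7 against the RNA polymerase II C-terminal domain phosphorylated on threonine 4 (pThr4). Nuclear lysate was treated in vitro, after lysis and not in living cells, with active SCP1 (SCP1 WT) or with its catalytically inactive D96A variant (SCP1 D96A), and no group was left without enzyme. There were 3 biological replicates with each form of the enzyme, and peaks were listed separately for every library. No list of the IgG control precipitation was analysed here.

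Immediate early genes are switched on within minutes of a growth or stress signal without new protein synthesis, and many hold RNA polymerase II paused near the start before the signal arrives. SCP1 is a small phosphatase of the C-terminal domain. A phosphate on the neighbouring serine (pSer5), which is placed at the beginning of transcription, can hide pThr4 from the antibody. The design therefore asked where pThr4 becomes detectable once that phosphate is removed. The label of the gene set calls the genes short and strongly paused. Of the 10, 9 were at most 10 kb long and ATF3 spanned 55371 bp. Pausing was not measured in these lists and could not be checked.

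Promoter sequences were read from the RefSeq table of GRCh38.p14, which held 9 of the 10 genes. Position 0 is the first base of the gene, and each sequence is the 300 bases that end at position 49, 5′ to 3′ on the strand of the gene. Capitals mark TATAAA on the gene strand, TGACG (the core of the cAMP response element) on both strands, and the CArG box, the site of serum response factor, on both strands. ATF4 is shown because listed peaks ran into its promoter, FOS because it had a peak just inside the gene, and EGR1 because no list held a peak near it.
ATF4, chr22:39520309-39520608, plus strand: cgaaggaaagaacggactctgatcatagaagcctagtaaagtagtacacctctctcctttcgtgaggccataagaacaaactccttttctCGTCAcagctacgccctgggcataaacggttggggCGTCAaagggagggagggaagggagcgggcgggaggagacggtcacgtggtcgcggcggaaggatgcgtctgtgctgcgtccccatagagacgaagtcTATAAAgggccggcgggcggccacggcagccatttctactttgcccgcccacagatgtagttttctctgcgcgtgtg
FOS, chr14:75278578-75278877, plus strand: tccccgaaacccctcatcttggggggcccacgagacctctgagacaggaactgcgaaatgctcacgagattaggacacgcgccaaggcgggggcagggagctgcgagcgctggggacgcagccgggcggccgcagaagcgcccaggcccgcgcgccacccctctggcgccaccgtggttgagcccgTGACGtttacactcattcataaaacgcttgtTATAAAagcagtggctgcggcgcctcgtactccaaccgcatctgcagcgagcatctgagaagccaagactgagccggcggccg
EGR1, chr5:138465229-138465528, plus strand: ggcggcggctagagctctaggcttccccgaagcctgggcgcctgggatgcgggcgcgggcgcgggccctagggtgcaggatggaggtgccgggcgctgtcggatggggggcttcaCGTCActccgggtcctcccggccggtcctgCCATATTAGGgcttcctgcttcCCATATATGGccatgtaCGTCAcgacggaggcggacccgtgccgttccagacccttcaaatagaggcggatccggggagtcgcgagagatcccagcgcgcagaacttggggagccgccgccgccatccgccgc
TATAAA occurred in JUNB, FOS and ATF4, 3 of the 9 promoters, and in 6.96% of 15842 protein-coding promoters in the table. TGACG occurred in 7 of the 9 and in 29.3% of all. The CArG box occurred in EGR1 alone among the 9, at positions -105 to -96 and -83 to -74, and in 1.21% of all. The complete element TGACGTCA, whose matches also contain TGACG, occurred in JUND alone among the 9 and in 2.57% of all. These matches are descriptions of the letters in this window.

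The 6 lists held 31 peaks in the 10 windows, 20 with SCP1 WT and 11 with SCP1 D96A, and these lay at 6 genes. ATF4 had 13 of them, MYC 7 and JUNB 5, and the rest were at JUND, IER2 and FOS. No list held a peak in the windows of JUN, EGR1, ATF3 or DDIT4. The number of the 10 genes with a peak was 3, 2 and 6 in SCP1 WT replicates 1, 2 and 3, and 3, 2 and 3 in SCP1 D96A replicates 1, 2 and 3. Replicates 1 and 2 therefore had the same number in both groups, and only replicate 3 had more with active enzyme. Over protein-coding genes the share with a window peak was 41.5%, 30.1% and 65.9% in SCP1 WT replicates 1, 2 and 3. It was 16.2%, 8.23% and 17.2% in SCP1 D96A replicates 1, 2 and 3. Among protein-coding genes of at most 10 kb these shares were 33.2%, 25.2% and 53.5% with SCP1 WT, and 17.0%, 9.30% and 17.8% with SCP1 D96A. The complete lists were far less alike in length. On chromosomes 1 to 22 and X they held 6680 to 36892 peaks with SCP1 WT and 1163 to 2699 with SCP1 D96A, and the lowest −log10 p that a list admitted was 3.08 to 3.79 with SCP1 WT and at least 4.20 with SCP1 D96A. Sequencing depth is unknown here, since a peak list gives no reads. A gene without a peak had none that passed the cutoff of that list.

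No gene of the 10 had a peak in all 3 SCP1 WT lists and in no SCP1 D96A list, while 8.9% of protein-coding genes did. A peak in all 6 lists was found at MYC and ATF4, 2 of the 10 genes, against 7.12% of protein-coding genes. Of the 10, 6 had a peak in at least 1 list, against 68.0% of protein-coding genes. FOS, JUND and IER2 owed this to SCP1 WT replicate 3 alone, a pattern that 22.9% of protein-coding genes shared. Without that list only 3 of the 10 genes had any peak. Among protein-coding genes of at most 10 kb these 4 shares were 5.05%, 8.53%, 54.9% and 19.5%.

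The covered share, the percentage of a window's bases that lay in a listed peak, was then compared for each gene. It was higher in every SCP1 WT list than in every SCP1 D96A list at 1 of the 10 genes, MYC, against 23.5% of protein-coding genes. The opposite separation occurred at none of the 10 and at 0.0% of protein-coding genes. For 3 libraries against 3, an exact permutation p of 0.1 is the smallest there is, and after Benjamini-Hochberg adjustment over 19626 genes 0.0% of genes passed 0.05. Among protein-coding genes of at most 10 kb, 18.7% had every SCP1 WT list above every SCP1 D96A list. The median over the 10 genes of the difference in covered share, SCP1 WT minus SCP1 D96A, was 2.95 percentage points, against 0.74 over all protein-coding genes and 0.83 over those of at most 10 kb. Without SCP1 WT replicate 3 the median over the 10 genes was 0.0.

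**Figure D1:**
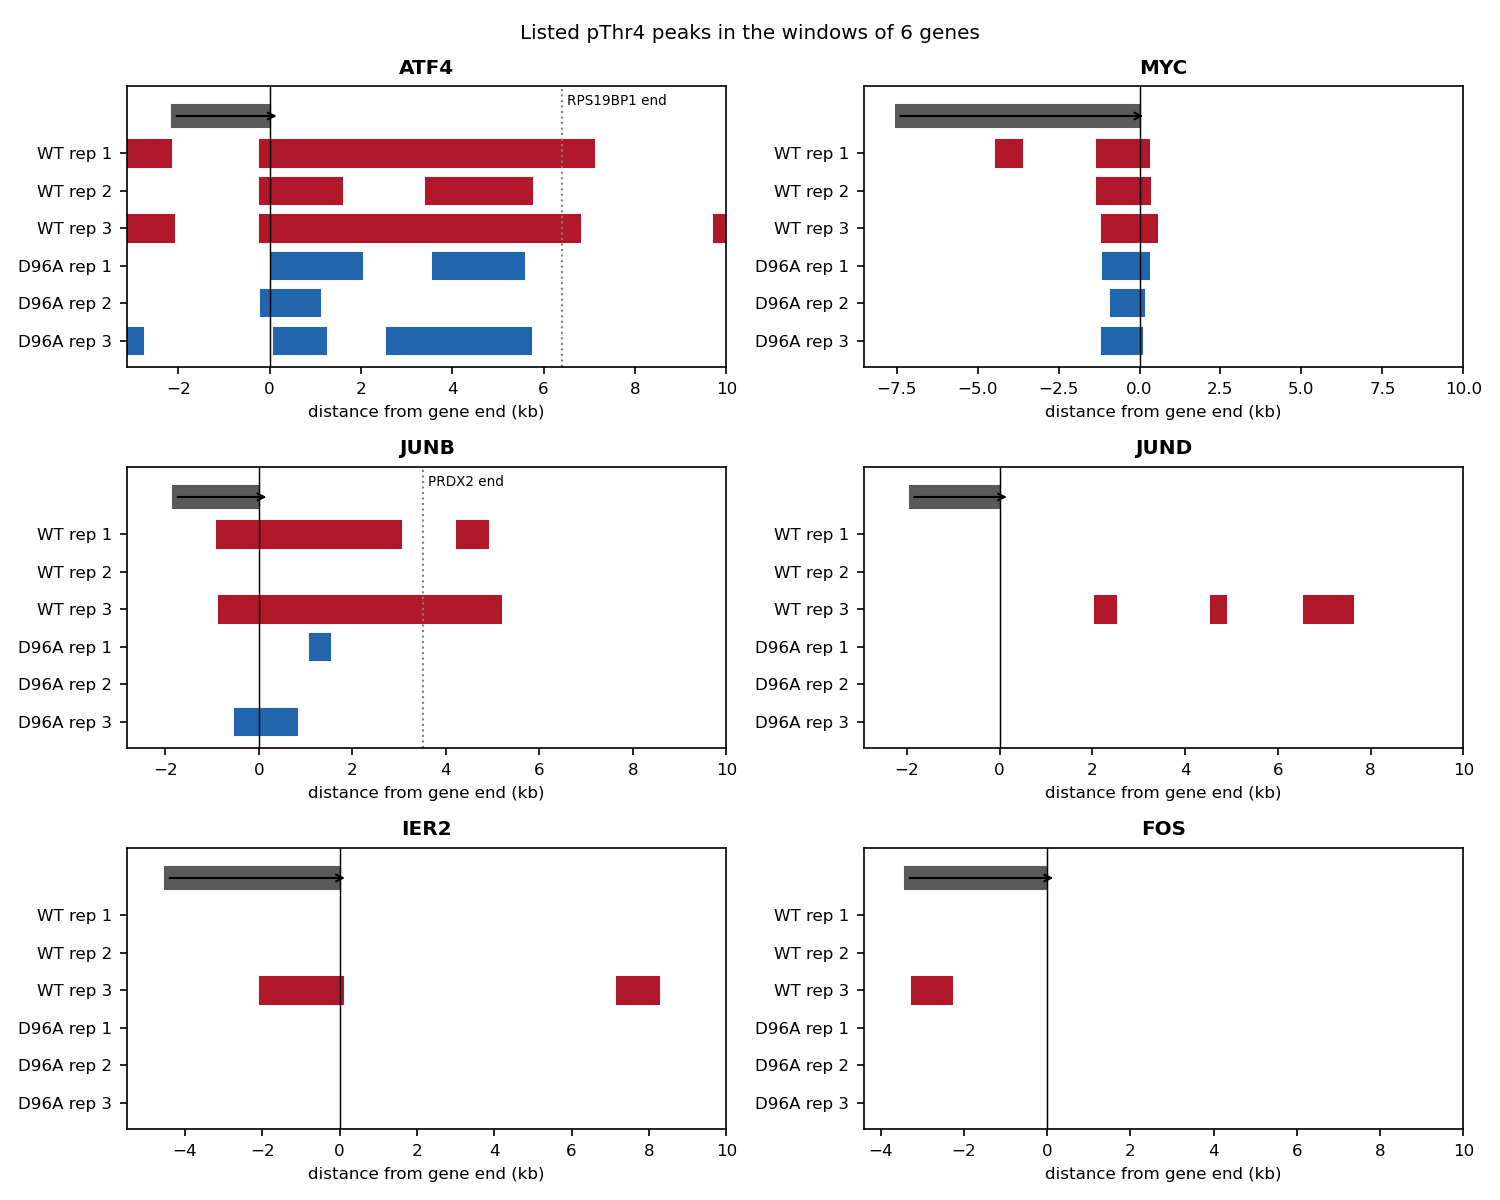
Listed peaks (red, SCP1 WT; blue, SCP1 D96A; one row per library) along the windows of the 6 genes with any peak, by distance from the gene end in kb. The grey bar with an arrow is the gene in its direction of transcription, and dotted lines mark the ends of convergent neighbours. All 6 libraries have a peak over the MYC end and one that spans the ATF4 end or begins within 95 bp of it.

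Across the 10 windows, 26 of the 31 peaks touched the 10 kb past a gene end and 14 spanned the gene end itself. Only 4 touched the start zone, defined as the bases from 1 kb before the start to 1 kb after it or to the middle of the gene where that was nearer. With SCP1 WT 16 of 20 peaks touched the downstream bases, and with SCP1 D96A 10 of 11 did. Of the covered bases, 71.7% to 73.5% lay past the gene end in the SCP1 WT lists and 53.1% to 80.7% in the SCP1 D96A lists. The groups overlapped in this share. The downstream zone was itself the longest part of each window with peaks. It made up 10000 of 13128 bp at ATF4, 10000 of 18518 bp at MYC and 10000 of 12830 bp at JUNB. The start zone was far shorter, 2001 bp at ATF4. These peak counts and shares of covered bases were not set against zone length or computed over other genes. They cannot be read as a trait of the 10 genes. The start zones of the 10 genes together had 959, 0 and 1875 covered bases in SCP1 WT replicates 1, 2 and 3, and 0, 0 and 351 in SCP1 D96A replicates 1, 2 and 3, so the groups overlapped there too. A start-zone peak in all 3 SCP1 WT lists occurred at 0 of the 10 genes and at 3.89% of protein-coding genes. A downstream peak in all 3 SCP1 WT lists occurred at 2 of the 10, MYC and ATF4, and at 19.0% of protein-coding genes. A downstream peak in all 3 SCP1 D96A lists occurred at the same 2 genes and at 5.16% of protein-coding genes. Among protein-coding genes of at most 10 kb, a start-zone peak in all 3 lists occurred at 7.33% with SCP1 WT and 1.71% with SCP1 D96A, and a downstream peak at 18.2% and 6.24%. A downstream peak in any list was found at 5 of the 10 genes, against 48.0% of protein-coding genes and 44.9% of those of at most 10 kb.

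MYC (chromosome 8, 127735434 to 127742951, plus strand) encodes a transcription factor that drives growth and division. All 6 lists held a peak over its gene end. It covered 127741636 to 127743238, 127741643 to 127743274 and 127741788 to 127743481 in SCP1 WT replicates 1, 2 and 3. In SCP1 D96A replicates 1, 2 and 3 it covered 127741826 to 127743250, 127742069 to 127743075 and 127741796 to 127743036. Counted from the gene end, with negative distances inside the gene, these peaks began at -1315 to -882 bp and stopped at 85 to 530 bp, and 968 bases, from -882 to 85, were covered in all 6 lists. The peaks ended far closer to the gene end than those of ATF4 did. The only other peak of the window was in SCP1 WT replicate 1, inside the gene at 3098 to 3887 bp from the start, with a fold enrichment of 2.96 and a −log10 p of 3.82. No list held a peak in the MYC start zone.

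The MYC peak was listed with a larger width but lower strength with active enzyme, in groups that did not overlap. Its width was 1603, 1632 and 1694 bp in SCP1 WT replicates 1, 2 and 3 and 1425, 1007 and 1241 bp in SCP1 D96A replicates 1, 2 and 3, with means of 1643 bp ± 46.5 (SD, n = 3) and 1224 bp ± 209.5 (SD, n = 3), which gave an exact permutation p of 0.1. The distance by which this peak passed the gene end overlapped between the groups (p = 0.2 by exact permutation). Neither width nor this distance was computed over other genes. The covered share of the MYC window was 12.9%, 8.81% and 9.15% with SCP1 WT and 7.70%, 5.44% and 6.70% with SCP1 D96A. The groups did not overlap. The means were 10.3% ± 2.28 (SD, n = 3) and 6.61% ± 1.13 (SD, n = 3), and they differed by 3.68 percentage points, with an exact permutation p of 0.1 and an adjusted p of 0.426 over all protein-coding genes. Within replicates 1 and 2, whose peak names share a form that replicate 3 does not, the difference was 4.30 points. When each list was cut to its strongest 1163 peaks, the MYC peak of SCP1 WT replicate 1 was lost and the difference turned to -0.62 points.

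In contrast, the −log10 p of the gene-end peak was 6.10, 6.95 and 7.86 in SCP1 WT replicates 1, 2 and 3 and 9.89, 9.11 and 9.99 in SCP1 D96A replicates 1, 2 and 3. Every SCP1 D96A value was above every SCP1 WT value. The SCP1 WT mean was 6.97 ± 0.879 (SD, n = 3), the SCP1 D96A mean was 9.66 ± 0.483 (SD, n = 3), and SCP1 WT minus SCP1 D96A was -2.69 with an exact permutation p of 0.1. The fold enrichment, as deposited by the authors for the peak, was 3.68, 3.99 and 4.25 with SCP1 WT and 5.07, 4.55 and 5.05 with SCP1 D96A, again without overlap (difference -0.91, exact permutation test, p = 0.1). Among the 1398 protein-coding genes with a window peak in all 6 lists, the strongest peak had a higher −log10 p in every SCP1 D96A list at 1.43% and in every SCP1 WT list at 36.1%. For fold enrichment these shares were 2.22% and 22.4%. Among such genes of at most 10 kb they were 2.16% and 35.2% for −log10 p, and 2.16% and 21.6% for fold enrichment. A difference in −log10 p at least as far toward SCP1 D96A as at MYC was found at 0.215% of those genes. This comparison of strength was chosen after the values were seen. The −log10 p depends on the depth of a library, which is unknown, and both measures are taken over peaks of unequal width. The part of these in the difference was not tested. Within its own list the MYC peak had a −log10 p above that of 87.8%, 89.99% and 97.8% of peaks in SCP1 WT replicates 1, 2 and 3 and 94.7%, 90.7% and 95.1% in SCP1 D96A replicates 1, 2 and 3. In this rank the groups overlapped (p = 0.7 by exact permutation), with a mean difference of -1.65 percentage points. Over the 1398 genes the median difference in this rank was 23.6 points, and 0.501% of them had one as low as MYC. These ranks come from lists of very different length.

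**Figure D2:**
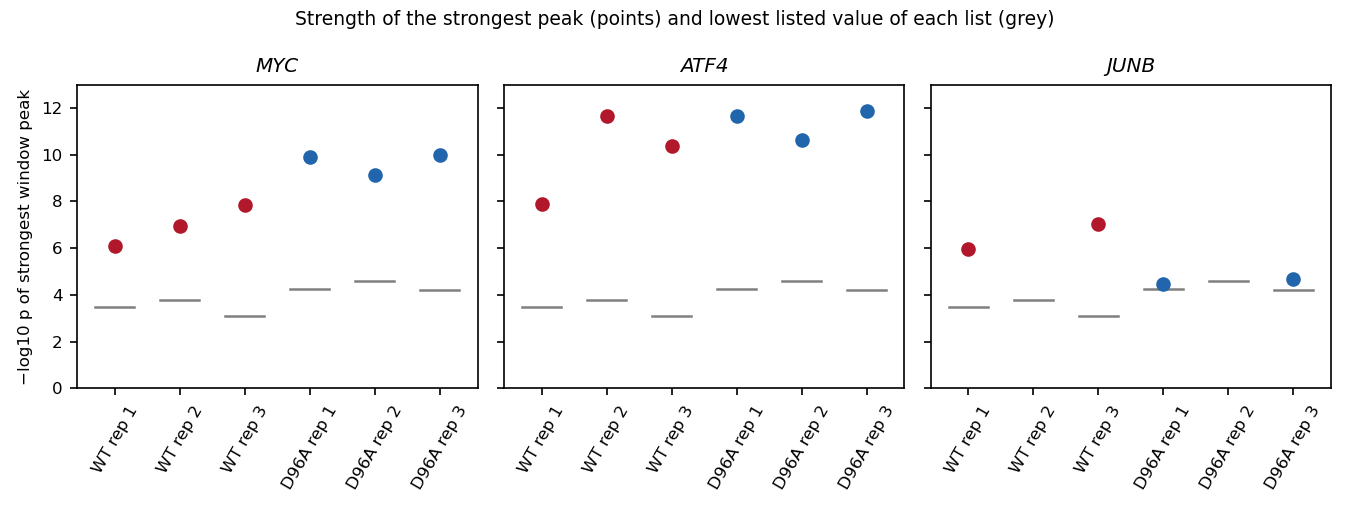
The −log10 p of the strongest listed peak in the windows of MYC, ATF4 and JUNB (points; red, SCP1 WT; blue, SCP1 D96A), with the lowest value admitted by each list as a grey line. The 3 SCP1 D96A points of MYC, at 9.11 to 9.99, lie above its 3 SCP1 WT points, at 6.10 to 7.86.

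ATF4 (chromosome 22, 39520559 to 39522686, plus strand) encodes the main transcription factor of the integrated stress response. It had the largest covered share of the 10 genes in each of the 6 lists. With SCP1 WT 63.0%, 31.4% and 63.3% of its window was covered in replicates 1, 2 and 3, and with SCP1 D96A 30.2%, 9.83% and 35.4%. The ATF4 window alone supplied 37.7% to 71.7% of all covered bases of the 10 windows. The groups overlapped through SCP1 WT replicate 2 and SCP1 D96A replicate 3, and the means of 52.6% ± 18.3 (SD, n = 3) and 25.1% ± 13.5 (SD, n = 3) lay 27.4 percentage points apart, with an exact permutation p of 0.2 and an adjusted p of 0.775 over all protein-coding genes. The difference was 27.2 points within replicates 1 and 2. Without SCP1 WT replicate 2, or without SCP1 D96A replicate 3, the groups did not overlap. They overlapped with any other single library left out. The share of protein-coding genes that separate in this way was not computed.

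The peak at the ATF4 gene end differed in length between lists. In SCP1 WT replicates 1 and 3 it ran as 1 peak from -210 to 7099 bp and from -200 to 6804 bp of the gene end. In SCP1 WT replicate 2 it stopped 1580 bp past the end, and a second peak covered 3423 to 5750 bp past the end. The SCP1 D96A lists broke the same stretch in a similar way. The gene-end peak began at 43, -193 and 95 bp and reached 2019, 1096 and 1236 bp past the end in replicates 1, 2 and 3, and a second peak covered 3578 to 5571 bp in replicate 1 and 2580 to 5727 bp in replicate 3. SCP1 D96A replicate 2, the shortest list, had no second peak. In all 6 lists 1002 bases were covered, from 95 to 1096 bp past the end. Measured by the farthest listed base past the gene end, the SCP1 WT lists reached 7099, 5750 and 10024 bp and the SCP1 D96A lists 5571, 1096 and 5727 bp. In this reach the groups did not overlap, although SCP1 WT replicate 2 and SCP1 D96A replicate 3 nearly met (p = 0.1 by exact permutation). The value of 10024 bp came from a separate peak. The width of the gene-end peak itself and the point where it stopped overlapped between the groups (p = 0.2 by exact permutation for each). None of these measures was computed over other genes. The convergent gene RPS19BP1 ends 6407 bp past the ATF4 end. The long peaks of SCP1 WT replicates 1 and 3 ran into it, and the other downstream peak of SCP1 WT replicate 3 lay inside it, near its start. Without strand in the data these bases cannot be assigned to either gene.

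The strength of the ATF4 gene-end peak did not separate the groups. Its −log10 p was 7.88, 11.7 and 10.4 in SCP1 WT replicates 1, 2 and 3 and 11.7, 10.6 and 11.9 in SCP1 D96A replicates 1, 2 and 3 (difference -1.40, exact permutation test, p = 0.3). Its fold enrichment was 4.17, 5.45 and 4.81 against 5.79, 5.19 and 5.84 (difference -0.80, exact permutation test, p = 0.2). Its −log10 p was above that of 94.7% to 99.1% of the peaks in each list.

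Upstream of ATF4, 3 lists held a peak that touched the start zone. It covered 39517849 to 39520517 in SCP1 WT replicate 1, 39515062 to 39520590 in SCP1 WT replicate 3 and 39518829 to 39519909 in SCP1 D96A replicate 3. Their −log10 p values were 4.34, 4.25 and 5.17 and their fold enrichments 3.12, 3.09 and 3.57. Only the SCP1 WT replicate 3 peak crossed the ATF4 start, by 31 bp, and the replicate 1 peak stopped 42 bp before it. Of the 300 promoter bases printed above, 209 and 282 were covered in SCP1 WT replicates 1 and 3 and 0 in the other 4 lists. The upstream gene MIEF1, on the same strand, ends at -2427 bp from the ATF4 start, and the peaks of SCP1 WT replicates 1 and 3 cover the MIEF1 end, while the SCP1 D96A replicate 3 peak lies past it. Whether they belong to the end of MIEF1 or to the start of ATF4 cannot be told apart.

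JUNB (chromosome 19, 12791486 to 12793315, plus strand), a subunit of the AP-1 transcription factor, had peaks in 4 lists. SCP1 WT replicate 1 held a peak from -902 to 3034 bp of the gene end and another at 4243 to 4905 bp, and SCP1 WT replicate 3 held 1 peak from -852 to 5187 bp. SCP1 D96A replicate 3 held a peak from -508 to 810 bp, and SCP1 D96A replicate 1 a peak at 1092 to 1516 bp. Replicate 2 of both groups had none. The covered share was 35.9%, 0.0% and 47.1% with SCP1 WT and 3.31%, 0.0% and 10.3% with SCP1 D96A, and the means differed by 23.1 percentage points, less than the SD of 24.6 with SCP1 WT (p = 0.4 by exact permutation). Without SCP1 WT replicate 2, but with SCP1 D96A replicate 2 kept at 0.0%, the groups did not overlap. They overlapped with any other single library left out. The share of protein-coding genes that separate in this way was not computed. The SCP1 D96A peaks had −log10 p values of 4.48 and 4.69, close to the lowest values those lists admitted, 4.23 and 4.20. The peak over the gene end had 4.97 in SCP1 WT replicate 1 and 7.03 in SCP1 WT replicate 3. Its fold enrichment was 3.41 and 4.12, against 3.42 and 3.47 for the peaks of SCP1 D96A replicates 1 and 3. The strongest peak of SCP1 WT replicate 1, with 5.94, was the separate one at 4243 to 4905 bp, which lay in PRDX2. The convergent gene PRDX2 ends 3508 bp past the JUNB end, and the farther SCP1 WT bases lie in PRDX2. Without strand in the data the covered bases past the JUNB end cannot be assigned to either gene. The start zone of JUNB stopped at the middle of the gene, 915 bp in, and the SCP1 WT peaks began 927 and 977 bp from the start, just outside it.

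FOS, JUND and IER2 had peaks in SCP1 WT replicate 3 alone. FOS (chromosome 14, 75278828 to 75282230, plus strand), the AP-1 partner of the JUN proteins, had 1 peak at 158 to 1115 bp from its start, with a fold enrichment of 2.98 and a −log10 p of 3.55. Among the peaks that began after a gene start it began closest to one, and it ranked 26134 of 36892 in its list. JUND (chromosome 19, 18279694 to 18281622, minus strand), an AP-1 subunit, had 3 peaks, none over the gene, at 2053 to 2502, 4563 to 4892 and 6556 to 7618 bp past its end, with fold enrichments of 3.00, 3.68 and 3.14 and −log10 p values of 3.59, 5.26 and 4.04. The last lay in the neighbouring gene IQCN, which is on the same strand and begins 5242 bp past the JUND end. The middle peak stopped shortly before the IQCN start. Whether it belongs to the end of JUND or to the start of IQCN cannot be told apart. IER2 (chromosome 19, 13150411 to 13154911, plus strand), an immediate early nuclear protein, had a peak from -2045 to 97 bp of its end, with a fold enrichment of 2.74 and a −log10 p of 3.37, and one at 7181 to 8263 bp past it, with 3.05 and 3.797. Of these 6 peaks, the middle peak of JUND alone exceeded the lowest −log10 p of every SCP1 D96A list. The other 5 were weaker than any peak those lists held. The covered shares in SCP1 WT replicate 3 were 6.65% at FOS, 14.3% at JUND and 20.8% at IER2, and 0.0% in the other 5 lists (exact permutation test, p = 1.0 for each).

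**Figure D3:**
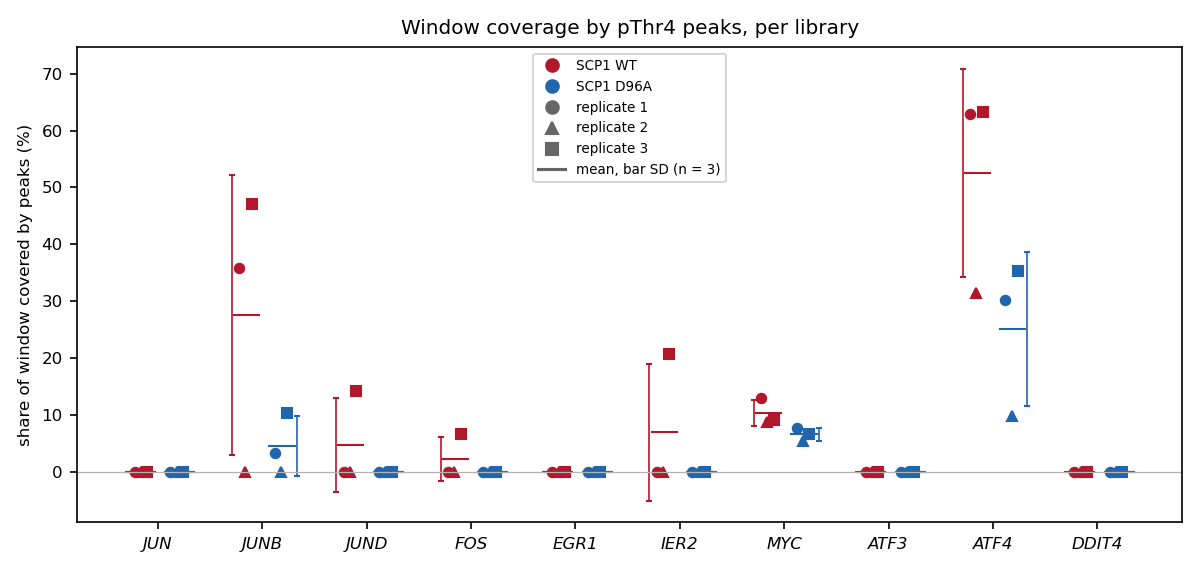
Percentage of each gene's window covered by listed peaks, one symbol per library (red, SCP1 WT; blue, SCP1 D96A), with lines at group means and bars of 1 SD (n = 3 per group). Only at MYC do the 2 groups separate, at 8.81% to 12.9% against 5.44% to 7.70%, and 4 genes are at 0 in all 6 libraries.

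JUN (chromosome 1, 58780791 to 58784047, minus strand), the founding AP-1 subunit, was the gene farthest from any peak with SCP1 WT. The nearest listed peak lay 157, 3668 and 374 kb away in SCP1 WT replicates 1, 2 and 3 and 1461, 6427 and 4554 kb away in SCP1 D96A replicates 1, 2 and 3. ATF3 (chromosome 1, 212565407 to 212620777, plus strand), a stress-induced repressor of the same family as ATF4, had its nearest peak at 103, 104 and 6.80 kb with SCP1 WT and at 629, 6099 and 4766 kb with SCP1 D96A. EGR1 (chromosome 5, 138465479 to 138469303, plus strand), a zinc finger factor induced by serum through its CArG boxes, had it at 18.0, 27.3 and 17.0 kb and at 82.9, 83.1 and 33.8 kb. DDIT4 (chromosome 10, 72273924 to 72276036, plus strand), an inhibitor of mTORC1 signalling, had it at 36.4, 55.6 and 33.6 kb and at 55.3, 55.8 and 36.4 kb. The distances of SCP1 WT and SCP1 D96A overlapped at JUN and DDIT4 and did not at ATF3 and EGR1, in lists that differ in length. A longer list has more peaks that can lie near any gene. Such distances were not computed for other genes, so the separation cannot be read as a trait of ATF3 or EGR1.

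Other immediate early and stress response genes were listed from general knowledge, and all 58 were found. Of the 58, 33 had a window peak in at least 1 list, against 68.0% of protein-coding genes. A peak in all 3 SCP1 WT lists and no SCP1 D96A list was found at 2 of the 58, against 8.9% of protein-coding genes, and a peak in all 6 lists at 2 of the 58, against 7.12%. The covered share was higher in every SCP1 WT list than in every SCP1 D96A list at 7 of the 58, against 23.5% of protein-coding genes, and lower at 0, and none passed 0.05 after adjustment over all genes. None of these counts is above its share over all protein-coding genes, and the genes below are given as values of the list. The median difference was 1.02 percentage points, against 0.74 over all protein-coding genes. CEBPG, a partner of ATF4, had the largest difference, with 38.2%, 24.0% and 51.9% covered in SCP1 WT replicates 1, 2 and 3 and 0.0% in all 3 SCP1 D96A lists. DDIT3, a stress factor induced by ATF4, had 36.6%, 9.42% and 28.98% against 5.34%, 0.0% and 2.44%. Both windows hold other protein-coding genes (PEPD for CEBPG, and MARS1 and MBD6 for DDIT3). SESN2, a stress-induced regulator of mTORC1, had 20.3%, 9.93% and 15.9% against 5.35%, 3.86% and 3.11%. PSAT1, an enzyme of serine synthesis, had 13.8%, 2.83% and 12.5% against 2.56%, 0.0% and 0.0%. TRIB3, a pseudokinase induced by ATF4, had 9.75%, 3.69% and 5.14% against 1.46%, 0.0% and 0.0%. In these 5 genes every SCP1 WT value was above every SCP1 D96A value (exact permutation test, p = 0.1 for each, adjusted p = 0.426). STC2, a secreted glycoprotein, had 26.8%, 13.7% and 22.4% against 11.9%, 9.09% and 15.9%, without separation of the groups (p = 0.2 by exact permutation). SESN2 and STC2 were the genes with a peak in all 6 lists.

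**Figure D4:**
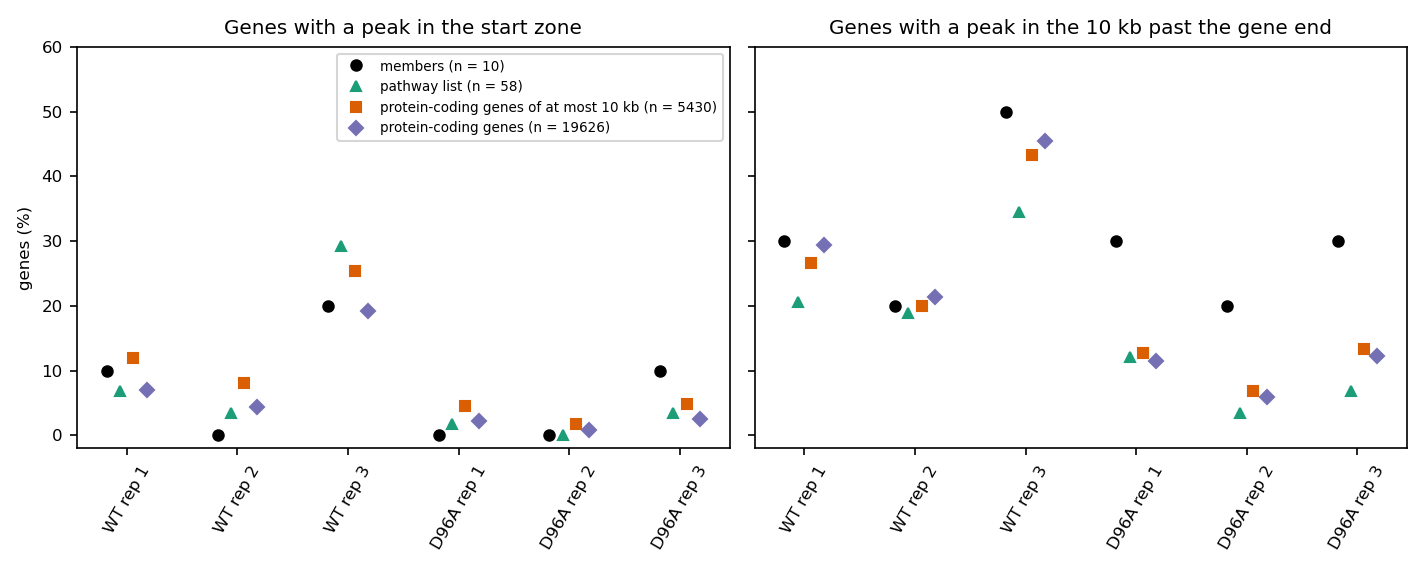
Percentage of genes with a listed peak in the start zone (left) and in the 10 kb past the gene end (right) in each library, for the 10 genes, the 58 listed pathway genes, protein-coding genes of at most 10 kb (n = 5430) and all protein-coding genes (n = 19626). Downstream peaks are at 2 to 3 of the 10 genes in the SCP1 D96A lists and at 2 to 5 in the SCP1 WT lists.

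The share of genes with a downstream peak was compared with all protein-coding genes in each list. Of the 10 genes, 3, 2 and 5 had one in SCP1 WT replicates 1, 2 and 3, against 29.4%, 21.4% and 45.5% of protein-coding genes. In SCP1 D96A replicates 1, 2 and 3 3, 2 and 3 of the 10 genes had one, against 11.5%, 5.93% and 12.3% of protein-coding genes. The genes with a downstream peak in a SCP1 D96A list were ATF4, MYC and JUNB, and no test was made. For the start zone, 1, 0 and 2 of the 10 genes had a peak with SCP1 WT, against 7.01%, 4.45% and 19.2% of protein-coding genes, and 0, 0 and 1 with SCP1 D96A, against 2.29%, 0.887% and 2.55%. By Euclidean distance over the 6 covered shares, the protein-coding genes closest to the mean of the 10 genes were NOB1, RAB11FIP3 and RILP, at distances of 2.13, 2.42 and 2.44 percentage points. The mean of the 10 genes was 11.2%, 4.02% and 16.1% with SCP1 WT and 4.13%, 1.53% and 5.23% with SCP1 D96A, a mean to which 2 to 6 genes in a SCP1 WT list and 2 to 3 in a SCP1 D96A list contributed.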

How the data were processed

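Peak lists of pThr4 ChIP-seq from 3 SCP1 WT and 3 SCP1 D96A libraries were used. Groups and replicate numbers came from the titles. The submitters' processing notes name FastQC, cutadapt 4.6, Bowtie2 2.5.2 and hg38. The peak caller, its control and read filters are not given in the sources used here, and peaks were listed per library. For each peak the authors deposited a fold enrichment (a ratio over background), a −log10 p and −log10 q and a score, and the score was not used. The lowest −log10 q was just above 1 in each list, the value a q cutoff of 0.1 leaves. Peak names share 1 form in replicates 1 and 2 and another in replicate 3, of unstated meaning. Apart from the letters of the group, the names of same-numbered libraries match between the groups.

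Gene positions came from RefSeq (GRCh38.p14). Strand came from its promoter table or, as for MYC, from GENCODE release 44 by gene name. Windows, zones and an overlap of 1 bp were set as described, on chromosomes 1 to 22 and X. The covered share was compared by a two-sided exact permutation test over 20 assignments of libraries for every protein-coding gene, with Benjamini-Hochberg adjustment (Python 3.11.15, numpy 2.4.6, pandas 2.3.3), checked on simulated lists. Alternatives were an equal peak number of 1163, a −log10 p of at least 6, a −log10 q of at least 2, an overlap of 200 bp, 5 kb downstream, leaving out each library, and same-numbered pairs. All 10 genes were named. Of the 58 pathway genes, up to 6 with a peak in all 3 SCP1 WT lists (by difference) and up to 4 with a peak in all 6 lists (by lowest covered share) were named, and 3 genes by Euclidean distance. The members and lists were chosen with earlier results of these data known.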

Additional observations from a re-analysis of the deposited data

How the results depend on the processing

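At MYC and ATF4 a peak in all 6 lists was found under each alternative but equal peak number, which left 1 gene, ATF4, because the MYC peak of SCP1 WT replicate 1 ranked 1546. The number of genes with a downstream peak in all 3 SCP1 WT lists was then 1 too, and the covered-share difference at MYC changed direction (-0.62 percentage points) while that at ATF4 was 35.6 without overlap. The number of genes whose covered shares did not overlap was 2 (MYC and ATF4) with the common −log10 p cutoff of 6 and with the −log10 q cutoff of 2. Leaving out 1 library gave 1 to 3 such genes, 3 (JUNB, MYC and ATF4) without SCP1 WT replicate 2 and 2 without SCP1 D96A replicate 3. The share of all protein-coding genes without overlap was not computed under these cutoffs or with a library left out. These counts therefore have no comparison. It gave 0 to 1 genes with a start-zone peak in all remaining SCP1 WT lists, the 1 being ATF4 without SCP1 WT replicate 2. The median difference was 0.0 to 3.87 percentage points over the left-out libraries, and 0.0 under both cutoffs and equal peak number. No gene had a peak in all SCP1 WT and no SCP1 D96A lists under any alternative run.

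With the replicate block, 2 genes (MYC and ATF4) were higher with SCP1 WT in 3 of 3 same-numbered pairs. In each pair the SCP1 WT list was the longer one. The share of all protein-coding genes with this pattern was not computed, so the count has no comparison. The deviations of same-numbered libraries from their group means correlated at -0.0032, 0.44 and 0.28 for replicates 1, 2 and 3 over protein-coding genes, so the numbers were not taken to pair the libraries. The peak names of same-numbered libraries do match between the groups, so a pairing remains possible. SCP1 WT replicate 1 correlated best with SCP1 D96A replicate 2 (0.024), and SCP1 WT replicates 2 and 3 with their own number. The exact sign-flip test over 3 pairs cannot give a p-value under 0.25.

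The difference in −log10 p at MYC kept its direction without each library, and within replicates 1 and 2 it was -2.98. Unknown depth limits all comparisons across lists.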
